A study of Sus scrofa with 20 samples.

Results

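The mitochondrial carrier family SLC25 was examined in the hypothalamus of high-reactive (HR) and low-reactive (LR) pigs. Its members were all genes whose symbol in the platform annotation begins with SLC25A. The array held 56 such probe sets for 35 of the 13755 named genes, and each gene was read from its probe set of highest mean over all arrays. Most carriers of this family sit in the inner mitochondrial membrane and exchange ATP, phosphate, amino acids, organic acids, cofactors and metal ions between the cytosol and the mitochondrial matrix. In the brain they release the ATP made by oxidative phosphorylation for use by synapses and ion pumps, and as part of the malate-aspartate shuttle they bring reducing equivalents of glycolysis into mitochondria. Glutamate and aspartate, which some of them move, also serve neurons as transmitters or their precursors.

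The samples were hypothalami of German Landrace pigs, 10 HR and 10 LR, which the labels call adult while the methods give a slaughter age of some months, with 1 Affymetrix Porcine Snowball array per animal. Coping style had been scored as the reaction of piglets to restraint on the back, and the study selected animals by this behaviour together with their haplotype in a region of chromosome 12, so behaviour and haplotype cannot be told apart. Sex and hybridisation batch were not stated in the labels. Values are log2 intensities after RMA normalisation, and every difference below is HR minus LR on that scale with its standard error from limma. In bulk tissue, fewer cells of a type and less RNA per cell cannot be told apart.

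The tissue label was checked with marker genes. All 10 measured hypothalamus markers passed the filter on dim probe sets, as did 5 of 6 thalamus markers and 3 of 4 measured markers of striatum and pallium, while 5 of 6 anterior pituitary markers did not. Passing the filter therefore does not set hypothalamus apart from neighbouring brain regions. The mean of the log2 values of the hypothalamus markers on an array lay between 8.14 and 8.77 in HR and between 7.63 and 8.64 in LR. The lowest of these was LR replicate 3, which was also highest for thalamus markers with 8.35. The mean of 69 background control probe sets, a measure of the unspecific signal of an array, was 4.09 ± 0.26 in HR and 4.01 ± 0.17 in LR (SD, n = 10 each). It lay over 1 SD from the mean of all arrays in 5 HR and 2 LR arrays.

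Of the 35 carriers, 32 had a mean in the upper 50% of probe sets and entered the comparison. The other 3 were SLC25A31, the ADP/ATP carrier best known from testis, with a mean of 3.56, SLC25A15, an ornithine carrier of the urea cycle, with 5.11, and SLC25A22, a glutamate carrier, with 5.19. The filter lay at 5.21, and the dimmest carrier above it was SLC25A21, a carrier of 2-oxoadipate, with 5.32. SLC25A22 reached 4.77 to 6.07 in HR and 4.61 to 5.45 in LR, so its arrays lay on both sides of that limit.

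No carrier passed the threshold in the comparison of HR with LR. Adjusted p-values under 0.05 were found for 0 of 32 carriers and for 0% of the 23861 probe sets tested, and the smallest adjusted p among the carriers was 0.861 by limma. At an unadjusted p under 0.05 there were also 0 of 32 carriers, beside 4.57% of all probe sets tested, 1.21% higher and 3.36% lower in HR. The exact rank-sum test likewise gave 0 carriers at an unadjusted p under 0.05 (smallest p = 0.0630), beside 3.67% of all probe sets. The values of HR and LR overlapped in all 32 carriers. The share of all probe sets with such an overlap was not computed, so this count cannot be called particular to the carriers.

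The differences lay between -0.34 and 0.20, with standard errors of 0.08 to 0.26 (n = 10 per group). Their median was -0.03, which became 0.00 when the quantile normalisation was repeated, beside 0.01 over all probe sets tested. Estimates were above 0 for 15 carriers and below 0 for 17, that is 53.1% below 0 against 48.6% of all probe sets. The precision can be read from the 95% intervals, which stayed within 1.5-fold in either direction for 27 carriers and within 2-fold for all 32. The widest interval was that of SLC25A27 and reached -0.78. Over the 20 arrays the SD of a carrier ran from 0.14 for SLC25A3 to 0.61 for SLC25A27, with a median of 0.29, beside 0.31 for all probe sets.

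**Figure D1:**
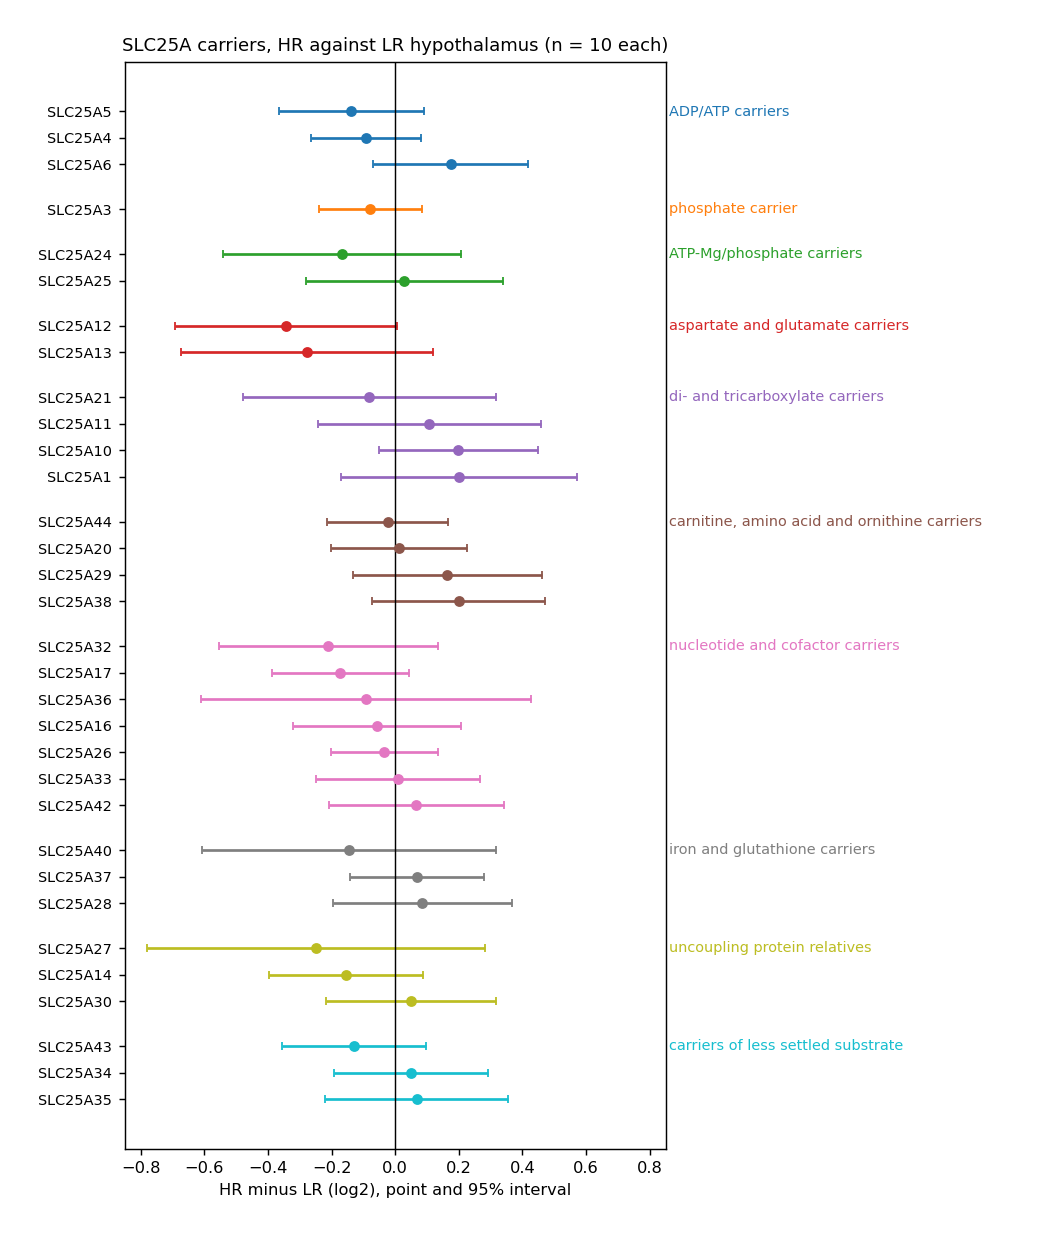
Difference HR minus LR (log2, x axis) of the 32 carriers that passed the filter, ordered by role, with points for the estimate and lines for the 95% interval of limma. All intervals cross 0, and that of SLC25A12 does so only just, from -0.69 to 0.0048.

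The ADP/ATP carriers export ATP from the matrix in exchange for ADP and are among the most abundant proteins of the inner membrane. SLC25A4, the form of heart and muscle that is also found in brain, measured 9.01, 9.47 and 9.71 (lowest, median and highest) in HR and 9.40, 9.57 and 9.70 in LR. SLC25A5, the form of proliferating and many other cells, measured 8.82, 9.68 and 9.84 in HR and 9.37, 9.76 and 9.89 in LR. In both carriers the groups had nearly the same upper end, and the lower end of HR was set by 1 array, replicate 9. SLC25A6, the third broadly expressed form, measured 7.63, 8.02 and 8.57 in HR and 7.54, 7.85 and 8.18 in LR, and HR replicate 5 gave its highest value. The differences were -0.09 ± 0.08 for SLC25A4, -0.14 ± 0.11 for SLC25A5 and 0.17 ± 0.12 for SLC25A6, none with a p under 0.15.

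SLC25A3, the carrier that supplies phosphate for ATP synthesis and also imports copper, was the steadiest carrier by SD. It measured 10.49, 10.89 and 11.05 in HR and 10.76, 10.94 and 11.10 in LR. The groups overlapped over most of their range, and the difference was -0.08 ± 0.08 (p = 0.334, limma, adjusted p = 0.882) with a 95% interval from -0.24 to 0.09. Of the ATP-Mg/phosphate carriers, which adjust the adenine nucleotide pool of the matrix under control of calcium, 2 were measured. SLC25A24 had a difference of -0.17 ± 0.18 and SLC25A25 of 0.03 ± 0.15.

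The aspartate/glutamate carriers feed the malate-aspartate shuttle and are activated by calcium from the cytosolic side. SLC25A12, known as aralar and the main form of neurons, measured 8.40, 9.33 and 9.79 in HR and 9.16, 9.54 and 9.90 in LR. Values of 4 HR arrays, replicates 3, 4, 5 and 10, lay below the lowest LR array, while the other 6 were within the LR range. Its difference of -0.34 ± 0.17 was the most negative of the family and had the smallest p (0.0530, adjusted p = 0.861, limma), and 3 HR arrays exceeded the LR mean. The exact rank-sum test gave p = 0.143 for the same values.

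SLC25A13, known as citrin and best studied in liver, measured 6.28, 7.54 and 8.01 in HR and 7.16, 7.60 and 7.82 in LR. The same 4 HR arrays lay below every LR array, but the group medians were close, and the difference was -0.28 ± 0.19 (p = 0.159). Across the 20 arrays the 2 carriers varied together with r = 0.915 and rho = 0.776 (permutation p = 1e-05 and 6e-05, adjusted over the 14 carrier pairs computed 3.5e-05 and 0.00021). The correlation was 0.948 within HR, 0.736 within LR, and 0.831 without the 2 arrays farthest from the median of SLC25A12. With the background control mean removed from both carriers it was 0.683. These pairs were chosen by role with the list of measured carriers known.

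Values that move with SLC25A12 stand beside it here. The 4 HR arrays with low SLC25A12 had background control means of 4.24, 4.39, 4.44 and 4.28, above the LR maximum of 4.22. Of the neuron markers all 8 passed the filter, 6 of 8 had negative differences with a median of -0.27, and 1 (NEFH, a neurofilament) had an unadjusted p under 0.05, beside 48.6% of all probe sets with negative differences and 4.57% at an unadjusted p under 0.05. Their mean level was 9.26, 9.78 and 10.23 in HR and 9.60, 9.97 and 10.51 in LR, and its correlation with SLC25A12 was 0.898 (rho = 0.901, permutation p = 1e-05 for both, adjusted over 35 carriers 8.7e-05 and 0.00035, 0.890 without the 2 arrays farthest in the neuron mean). Without the 2 arrays farthest in SLC25A12 it was 0.823, and adjusted over the 11 marker lists the permutation p-values were 5.5e-05 and 0.00011. Within HR this correlation was 0.944 and within LR 0.829. The relation was not particular to neuron markers. The erythrocyte list had r = -0.706 (rho = -0.674, permutation p adjusted over the lists 0.00091 and 0.0027, -0.666 without the 2 arrays farthest in SLC25A12). For striatum and pallium r was -0.574 (rho = -0.591, adjusted 0.020 and 0.013, -0.409 without them). For ependyma and choroid plexus it was -0.516 (rho = -0.734, adjusted 0.036 and 0.0011, -0.723 without them). The thalamus, pituitary, oligodendrocyte, microglia and endothelium lists had adjusted p above 0.05. Of the 11 marker lists the astrocyte list had r = 0.849 with SLC25A12 (rho = 0.833, permutation p = 1e-05 and 4e-05, adjusted over the lists 5.5e-05 and 0.00022, 0.781 without the 2 arrays farthest in SLC25A12), and the hypothalamus list had r = -0.720 (rho = -0.789, permutation p = 0.00033 and 8e-05, adjusted 0.00091 and 0.00029, -0.723 without them). The means of the neuron, astrocyte and hypothalamus lists also moved with the background control mean. The neuron list had r = -0.811 (rho = -0.830, permutation p = 6e-05 and 5e-05, adjusted 0.00017 and 0.00018, -0.775 without the 2 farthest arrays). The astrocyte list had r = -0.966 (rho = -0.950, permutation p = 1e-05 for both, adjusted 5.5e-05 for both, -0.954 without them). For the hypothalamus list r was 0.771 (rho = 0.896, permutation p = 2e-05 and 1e-05, adjusted 7.3e-05 and 5.5e-05, 0.816 without them). Members of a list did not all move alike with that mean. Of the astrocyte list GFAP (r = 0.612) and ALDH1L1 (0.802) were positive, and the other measured members ran from -0.950 to -0.880. Of the neuron list SYN1 (0.839) and RBFOX3 (0.334) were positive, and the other markers ran from -0.916 to -0.279. Of the hypothalamus list PMCH (-0.560) was negative and SIM1 (-0.004) near 0, and the other markers ran from 0.402 to 0.838. No fit with the astrocyte list as covariate was made. The difference of SLC25A12 was -0.21 ± 0.09 (p = 0.0286, limma, adjusted p = 0.627) with the background control mean as covariate, -0.09 ± 0.10 (p = 0.353) with the neuron marker mean as covariate, and -0.01 ± 0.12 without the 7 arrays of extreme background. With array weights it was -0.18 ± 0.12. The 7 arrays of extreme background were HR replicates 4, 5, 8, 9 and 10 and LR replicates 3 and 8. They include HR replicates 4, 5 and 10, low in SLC25A12, and the highest LR values of it, 9.89 and 9.90. HR replicates 8 and 9 measured 9.79 and 9.35. How far the estimate without these arrays rests on their choice was not tested.

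**Figure D2:**
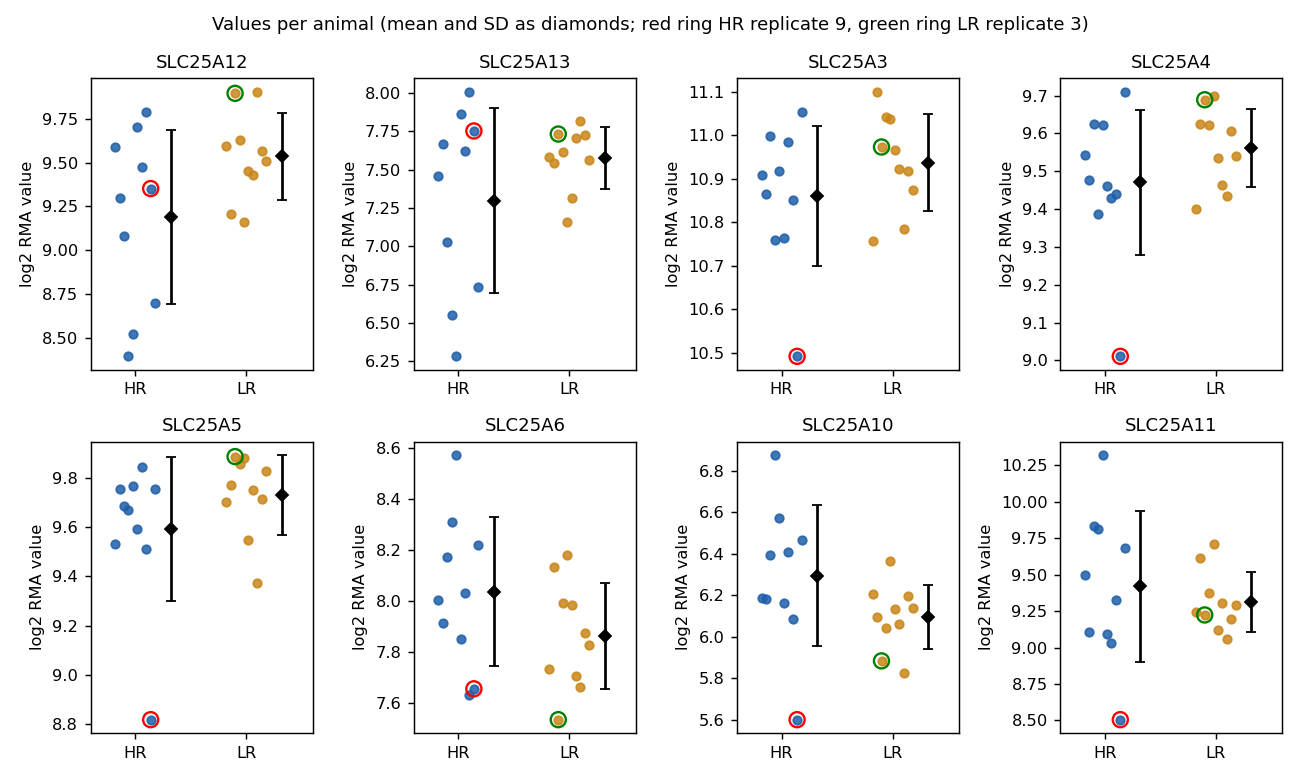
Log2 values of selected carriers per animal, with HR left of LR in each panel, points for the animals and diamonds with bars for the mean with SD (n = 10 each). A red ring marks HR replicate 9 and a green ring LR replicate 3. For SLC25A12 the HR points spread from 8.40 to 9.79 and the LR points from 9.16 to 9.90, so the groups overlap.

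The carriers of di- and tricarboxylates lead intermediates of the citric acid cycle out of and into the matrix. SLC25A1, the citrate carrier that supplies acetyl units for lipid synthesis, measured 7.85, 8.54 and 9.32 in HR and 7.73, 8.47 and 8.91 in LR (0.20 ± 0.18). SLC25A10, the dicarboxylate carrier, measured 5.60, 6.29 and 6.88 in HR and 5.82, 6.12 and 6.37 in LR. Its HR arrays spread beyond the LR range at both ends, with 8 above the LR mean, and the difference was 0.20 ± 0.12 (p = 0.114). SLC25A11, the 2-oxoglutarate/malate carrier and partner of SLC25A12 in the malate-aspartate shuttle, measured 8.51, 9.41 and 10.32 in HR and 9.06, 9.27 and 9.71 in LR (0.11 ± 0.17, p = 0.534). SLC25A21 had a difference of -0.08 ± 0.19. SLC25A1 and SLC25A11 varied together over the arrays (r = 0.881, rho = 0.856, permutation p = 1e-05 and 3e-05, adjusted 3.5e-05 and 0.00014, 0.945 without the 2 farthest arrays). With the background control mean removed from both carriers this correlation was 0.668.

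Among carriers of carnitine, amino acids and ornithine, SLC25A38, which imports glycine for heme synthesis, measured 6.75, 7.33 and 7.96 in HR and 6.82, 7.22 and 7.46 in LR. The lowest values of the groups were close, the highest HR arrays exceeded all LR arrays, and the difference was 0.20 ± 0.13 (p = 0.144). SLC25A29, a carrier of basic amino acids, had a difference of 0.16 ± 0.14, and SLC25A20, the carnitine/acylcarnitine carrier of fatty acid oxidation, of 0.01 ± 0.10. SLC25A44, a carrier of branched-chain amino acids, had -0.02 ± 0.09, an estimate that turned positive when the quantile normalisation was repeated.

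Carriers of nucleotides and cofactors numbered 7, with 5 estimates below 0 and 2 above. SLC25A17, a peroxisomal carrier of coenzyme A and other cofactors, measured 7.45, 8.01 and 8.21 in HR and 7.88, 8.07 and 8.45 in LR. Its medians were close, 3 HR arrays exceeded the LR mean, and the difference of -0.17 ± 0.10 (p = 0.109) kept its size with the background covariate (-0.19 ± 0.10). SLC25A32, which is linked to folate and flavin transport, had a difference of -0.21 ± 0.17. The pyrimidine nucleotide carriers SLC25A33 and SLC25A36 had 0.01 ± 0.12 and -0.09 ± 0.25, and were inversely related over the arrays (r = -0.902, rho = -0.911, permutation p = 1e-05 for both, adjusted 3.5e-05 and 0.00014, -0.868 without the 2 farthest arrays). Their correlations with the background control mean were 0.873 and -0.937, and with that mean removed from both carriers their own correlation was -0.491. SLC25A26, the S-adenosylmethionine carrier, gave -0.03 ± 0.08, SLC25A16 gave -0.06 ± 0.13, and SLC25A42, a coenzyme A carrier, gave 0.07 ± 0.13.

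The iron carriers mitoferrin-1 (SLC25A37) and mitoferrin-2 (SLC25A28) supply iron for heme and iron-sulfur clusters, and their differences were 0.07 ± 0.10 and 0.08 ± 0.14. SLC25A40, which is linked to glutathione import, gave -0.14 ± 0.22. Of the relatives of the uncoupling proteins, SLC25A27 (UCP4) and SLC25A14 (UCP5, also BMCP1) are known for their expression in brain. SLC25A27 measured 7.37, 8.86 and 9.57 in HR and 8.14, 8.87 and 9.98 in LR. Medians were nearly equal, HR replicates 5 and 10 lay below the LR range and replicate 4 at its lower end, and the difference was -0.25 ± 0.26 (p = 0.341). SLC25A14 gave -0.16 ± 0.12, with 2 HR arrays above the LR mean, and SLC25A30 gave 0.05 ± 0.13. Of the carriers whose substrate is less settled, SLC25A43 had -0.13 ± 0.11, SLC25A34 0.05 ± 0.12 and SLC25A35 0.07 ± 0.14.

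The carriers fell into sets by their relation to the background control mean over the 20 arrays. It was positive (r over 0.5) for 15 carriers, from 0.614 to 0.924, and negative (r under -0.5) for 8, from -0.937 to -0.853, while 9 lay between. The 8 were SLC25A12, SLC25A13, SLC25A21, SLC25A24, SLC25A27, SLC25A32, SLC25A36 and SLC25A40. SLC25A6 was the most positive (r = 0.924, rho = 0.910, permutation p = 1e-05 for both, adjusted over 35 carriers 2.2e-05 and 2.7e-05, 0.916 without the 2 farthest arrays), and the value of 1e-05 is the smallest that the 100000 permutations can give. SLC25A27 was the most negative (r = -0.937, rho = -0.932, the same p-values, -0.932 without the 2 farthest arrays). Of the 32 carriers 31 had the same sign of r within HR and within LR. The exception was SLC25A43 with -0.678 within HR and 0.242 within LR. Such relations were general on these arrays, with r beyond 0.5 in either direction for 71.9% of the carriers and 80.7% of all probe sets tested.

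**Figure D3:**
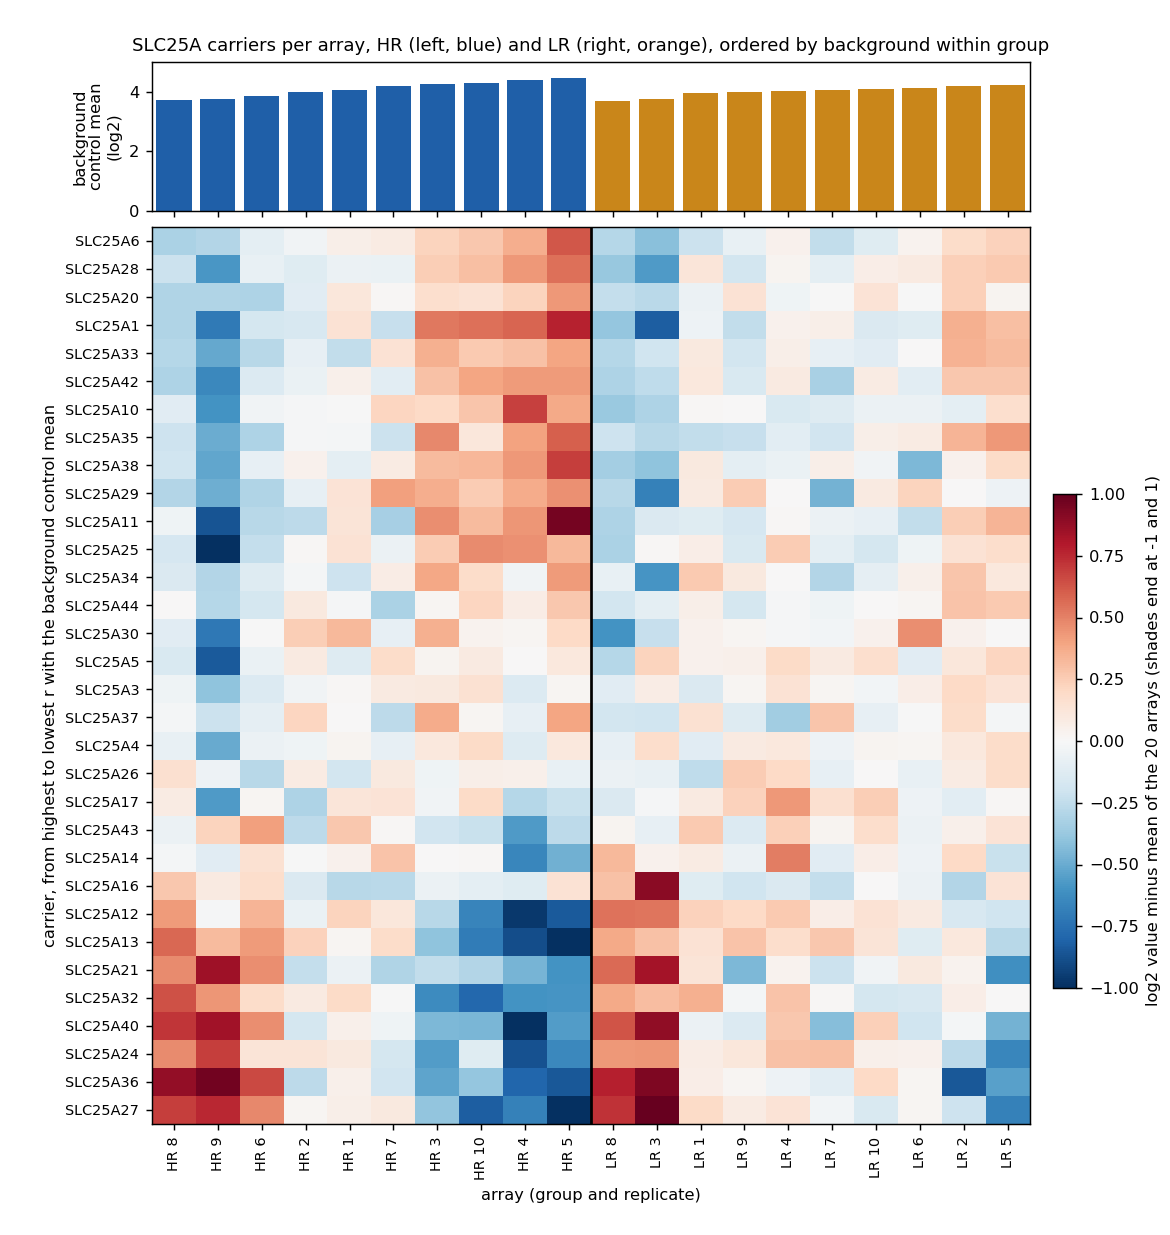
Deviation of each carrier (rows) from its mean over all arrays, in log2 units, with the HR arrays left of the LR arrays and each group ordered by its background control mean. The carriers at the top and bottom run in opposite directions across the arrays within both groups.

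The group estimates followed this division. The background control mean was itself higher in HR (4.09) than in LR (4.01). The counts of signs below were not computed for all probe sets, so they cannot be called particular to the carriers. Of the 15 carriers with positive r, 14 had estimates above 0 and 1 below, with a median of 0.07, and all 8 with negative r had estimates below 0, with a median of -0.19. With the background control mean as covariate these medians were -0.02 and -0.03. The 9 carriers between had a median of -0.09 without and -0.11 with the covariate. In that fit 23 carriers were below 0 and 9 above, 12 turned sign, and the family median stayed at -0.03, beside -0.02 for all probe sets. SLC25A12 and SLC25A5 then had an unadjusted p under 0.05 (SLC25A5 -0.19 ± 0.09, p = 0.0439), that is 2 of 32 beside 7.89% of all probe sets in the same fit, with 0.627 as the smallest adjusted p of limma.

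**Figure D4:**
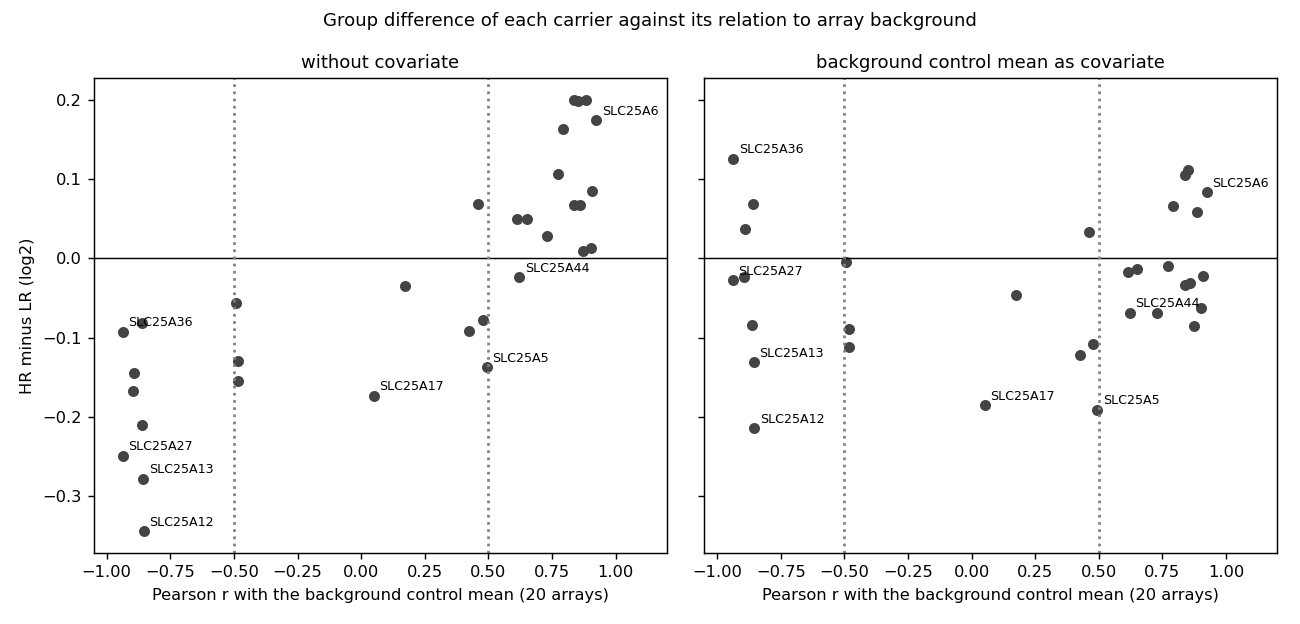
Difference HR minus LR (log2, y axis) of each of the 32 carriers against its Pearson r with the background control mean (x axis), without the covariate (left) and with it (right), with dotted lines at r of -0.5 and 0.5. Without the covariate the 8 carriers on the far left all lie below 0 and 14 of the 15 on the far right above 0, and with it carriers of both sets lie on both sides of 0.

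HR replicate 9 stood apart for SLC25A3, SLC25A4 and SLC25A5. It was the lowest of all 20 arrays in 13 of 32 carriers, and its mean over the 32 carriers, 7.60, was the lowest of any array, against 7.69 to 7.85 in the other HR arrays and 7.72 to 7.87 in LR arrays. Its array weight, estimated over all probe sets tested and small for deviating arrays, was 0.23, the lowest of the 20 arrays. The share of all probe sets that were lowest on HR replicate 9 was not computed, so the count cannot be called particular to the carriers. SLC25A3 measured 10.49 there and at least 10.76 on the other 19 arrays, SLC25A4 9.01 there and at least 9.39 elsewhere, and SLC25A5 8.82 there and at least 9.37 elsewhere. For the ADP/ATP carrier SLC25A6 it was not the lowest, with 7.66 there, 7.63 on HR replicate 8 and 7.54 on LR replicate 3. Its background control mean was 3.74, beside 3.73 on HR replicate 8, 3.76 on LR replicate 3 and 3.68 on LR replicate 8. SLC25A5 measured 9.51 on HR replicate 8, 9.89 on LR replicate 3 and 9.37 on LR replicate 8, the last its lowest value outside HR replicate 9. The part of the background signal in the values of HR replicate 9 was not tested. Without HR replicate 9 the differences were -0.04 ± 0.07 for SLC25A3, -0.04 ± 0.07 for SLC25A4 and -0.05 ± 0.08 for SLC25A5. Without it, SLC25A10 had a difference of 0.28 ± 0.10 (p = 0.0131) and SLC25A38 of 0.27 ± 0.12 (p = 0.0366), both with an adjusted p of 0.511 by limma, beside 7.86% of all probe sets at an unadjusted p under 0.05 in that fit. With any 1 array left out the difference ran from 0.13 to 0.28 for SLC25A10 and from 0.13 to 0.27 for SLC25A38. On all arrays with the background covariate it was 0.11 ± 0.07 for SLC25A10 and 0.11 ± 0.08 for SLC25A38.

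SLC25A3, SLC25A4 and SLC25A5 varied together over the arrays. The correlation of SLC25A3 with SLC25A4 was 0.893 (rho = 0.817, permutation p = 1e-05 and 3e-05, adjusted 3.5e-05 and 0.00014), and it was 0.794 without the 2 farthest arrays, 0.914 within HR and 0.818 within LR. For SLC25A4 with SLC25A5 it was 0.808 (rho = 0.598, permutation p = 0.00072 and 0.00621, adjusted 0.00126 and 0.0124) and 0.507 without the 2 farthest arrays. SLC25A6 had r = 0.403 to SLC25A4 (rho = 0.392, permutation p = 0.0773 and 0.0880, adjusted 0.0984 and 0.112). With the background control mean removed this was 0.03, against 0.867 for SLC25A3 with SLC25A4. The difference between these correlations was not tested.

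Several probe sets were present for 18 carriers, and 5 carriers had more than 1 probe set above the filter. In 12 of the 18 all probe sets gave estimates of the same sign. The 3 probe sets of SLC25A29 gave 0.16, 0.13 and 0.12, and those of SLC25A30 gave 0.05 and 0.18. SLC25A25 gave 0.03 and -0.10, and SLC25A44 gave -0.02, 0.01 and 0.09. The only probe set of the family at an unadjusted p under 0.05, 1 of 56 beside 4.57% in the fit over all 47722 probe sets, was the dimmest of 3 for SLC25A42, which measured 5.72, 5.95 and 6.36 in HR and 5.43, 5.72 and 6.0 in LR, so that the groups overlapped. Its difference in that fit was 0.26 ± 0.10 (p = 0.0123, adjusted p = 0.916, limma), while the brighter ones gave 0.07 ± 0.13 and 0.03 ± 0.15. In the limma fit over the probe sets past the filter it had p = 0.0127 and an adjusted p of 0.861. For SLC25A38 a probe set just below the filter, with a mean of 5.16, gave -0.53 ± 0.31, opposite in sign to the main one. Chosen probe sets of 6 carriers (SLC25A5, SLC25A16, SLC25A29, SLC25A35, SLC25A38 and SLC25A43) may pick up more than 1 transcript by their design, which leaves the gene uncertain.

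**Figure D5:**
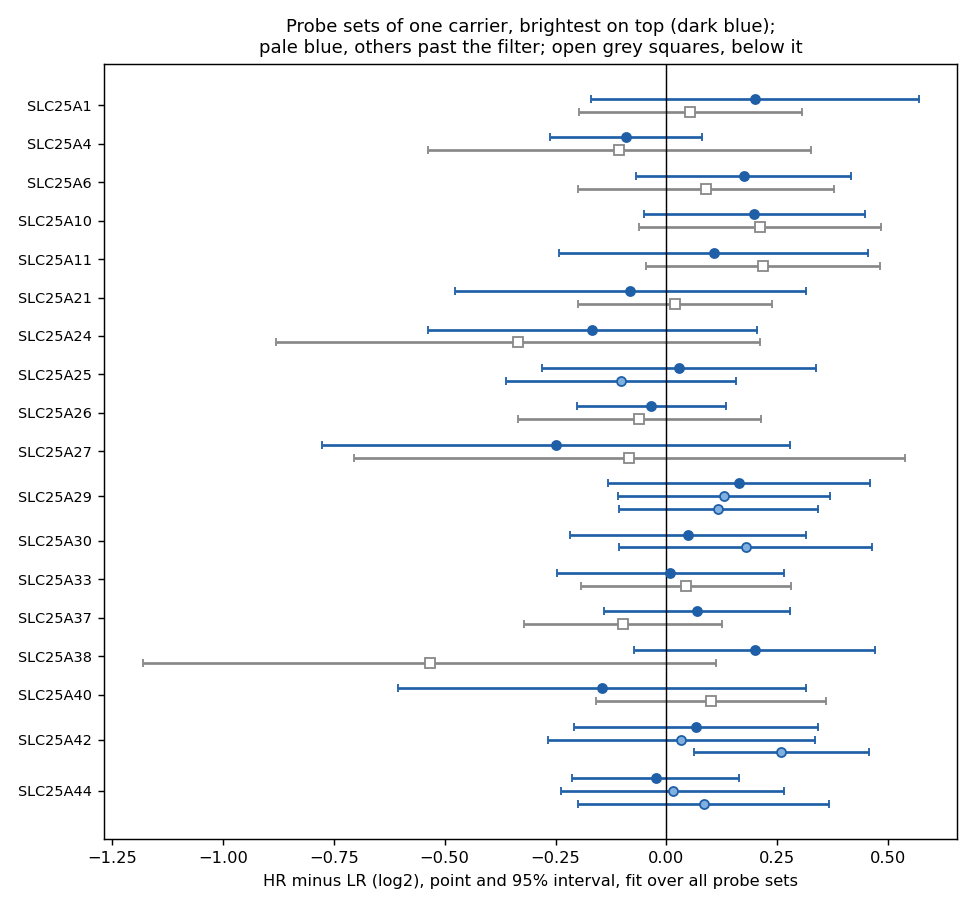
Difference HR minus LR (log2) of each probe set of the carriers with several probe sets, as points with the 95% interval, with probe sets above and below the filter marked apart. The 3 probe sets of SLC25A29 lie between 0.12 and 0.16, while those of SLC25A42 lie at 0.07, 0.03 and 0.26.

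All 35 symbols were found in the pig RefSeq annotation (Sscrofa11.1). SLC25A6 had no assigned chromosome there and was left out of the gene order. SLC25A10, SLC25A11 and SLC25A35 lie on chromosome 12, and of these SLC25A11 lies between METTL16 and ATP1B2. Their estimates were 0.20, 0.11 and 0.07, with positive relations to the background control mean in all 3 (r of 0.851, 0.772 and 0.838). SLC25A5 and SLC25A43 are direct neighbours on the X chromosome, and their correlation over the arrays was weak (r = -0.208, rho = -0.10, permutation p = 0.370 and 0.676, adjusted 0.398 and 0.676, -0.02 without the 2 farthest arrays).

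Genes that work with the carriers were read from a list of 32 symbols, of which 24 were measured and 23 passed the filter. None had an adjusted p under 0.05, and at an unadjusted p under 0.05 there were 0 higher and 2 lower, beside 1.21% and 3.36% of all probe sets. Their median difference was -0.04, with 9 estimates above and 14 below 0. Of the shuttle enzymes all 7 passed the filter, and GPD1L, a relative of glycerol-3-phosphate dehydrogenase, measured 5.59, 5.86 and 6.11 in HR and 5.83, 6.01 and 6.30 in LR (-0.19 ± 0.08, p = 0.0364). The mitochondrial aspartate aminotransferase GOT2 gave -0.13 ± 0.09. Of the channels of the outer membrane VDAC2 measured 9.92, 10.53 and 10.73 in HR and 10.51, 10.63 and 10.83 in LR (-0.20 ± 0.09, p = 0.0491), and VDAC3 gave -0.21 ± 0.13. In both VDAC2 and GPD1L the groups overlapped.

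Of 4 measured enzymes of the carnitine shuttle, CPT1B, the muscle form of carnitine palmitoyltransferase 1, had a difference of 0.23 ± 0.11 (p = 0.0540), and CPT1A, the liver form, of -0.14 ± 0.10. Of the carriers without an SLC25A symbol, UCP3, an uncoupling protein, gave 0.08 ± 0.09 and MTCH1, a carrier relative of the outer membrane, gave 0.02 ± 0.15. Of the import machinery, which guides carriers through the intermembrane space, TIMM9 gave -0.23 ± 0.17 and TIMM8A -0.16 ± 0.16. HR replicate 9 was also the lowest of all arrays for GOT1, GOT2 and MDH2, enzymes of the malate-aspartate shuttle, with 9.60, 9.89 and 9.14 against at least 10.22, 10.49 and 9.73 on the other 19 arrays. GOT1 and MDH2 were named after their values were seen, and their differences over all arrays were -0.12 ± 0.10 and 0.07 ± 0.15.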

How the data were processed

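The authors scanned and processed the arrays with GCOS 1.1.1 and deposited log2 values normalised by RMA, which corrects background, equalises the distributions of arrays and summarises probes into probe sets. A shift common to most transcripts is therefore removed, and unspecific signal compresses differences of dim probe sets. The authors' detection filter was not applied to the deposited table and was not used here. Of 47845 probe sets 123 controls were set aside, and the brighter 50% of the other 47722 were fitted (23861). HR and LR were compared with limma 3.58.1 in R 4.3.3 (lmFit, eBayes), with Benjamini-Hochberg adjustment over all fitted probe sets. Correlations were tested with 100000 two-sided permutations in numpy 2.4.6, with ranks and Benjamini-Hochberg adjustment from scipy 1.17.1. The limma step was tested on simulated data.

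The platform annotation gave 1 symbol to 26426 probe sets and none to 21296. Named genes were every carrier passing the filter, the partner genes with the 2 smallest p-values of each list, and carriers fixed by name. GOT1 and MDH2 were added after their values were seen. The members, lists and alternatives were chosen with earlier results of these data known. The labels give 1 animal per array, and the number of arrays limits the precision. Alternatives covered the filter, normalisation, array weights, a rank-sum test, covariates, the probe set of a gene and the arrays included. The build of the probe design is not given in the sources used here, so no coordinates are given.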

Additional observations from a re-analysis of the deposited data

Results flagged for a closer look

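In 10 of 88 groups examined (44 named genes, HR and LR apart), 1 array lay farther from the rest than Dixon's test allows at its 95% limit. Chance passes this limit in about 1 of 20 independent groups. Several of the genes varied together over the arrays, and GOT1 and MDH2 were named after their values were seen. The count therefore cannot be set against that rate. HR replicate 9 was the low array in 8 of the 10 groups. These were SLC25A3 with 10.49, SLC25A4 with 9.01, SLC25A5 with 8.82, SLC25A25 with 5.70, SLC25A30 with 7.21, GOT2 with 9.89, GOT1 with 9.60 and MDH2 with 9.14. Without it SLC25A25 had a difference of 0.15 ± 0.11, SLC25A30 of 0.13 ± 0.11 and MDH2 of 0.18 ± 0.11. LR replicate 3, the array highest in thalamus markers, was the high array for SLC25A16 with 7.67, and without it the difference of SLC25A16 was 0.04. LR replicate 8 was the low array for CPT1A with 7.10. The causes were not tested.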

How the results depend on the processing

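The count of carriers past the adjusted threshold was 0 under every alternative run. At an unadjusted p under 0.05 the count was 0 in all but the fit with the background covariate, which gave 2 (SLC25A5 and SLC25A12), and it ran from 0 to 2 when 1 array was left out. It was 1 (SLC25A12) without LR replicate 2 or 5 and without HR replicate 1, 6, 7 or 8, and 2 (SLC25A10 and SLC25A38) without HR replicate 9. The shares of all probe sets in the fits with 1 were 5.61% and 6.32% without LR replicates 2 and 5. Without HR replicates 1, 6, 7 and 8 they were 5.41%, 7.46%, 4.62% and 10.1%. Without HR replicate 9 the share was 7.86%, and with the background covariate 7.89%. These counts therefore cannot be called particular to the carriers. With 1 array left out the family median ran from -0.05 to -0.0056. No paired analysis was possible because the replicate numbers only name the arrays. Of 1301 estimates of the 44 named genes under alternatives, 1212 kept their sign and 89 did not, and 13 of the 32 carriers kept it throughout. The cause of these reversals was not tested, and most of these estimates are small beside their standard errors.

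Signs turned as follows. Repeated quantile normalisation gave SLC25A44 0.0043. Array weights gave SLC25A20 -0.0063 and SLC25A33 -0.015. Averaging the probe sets of each gene gave SLC25A25 -0.037 and SLC25A44 0.025.

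The background covariate, which was among the alternatives fixed with earlier results known, gave SLC25A11 -0.0093, SLC25A20 -0.062, SLC25A21 0.069, SLC25A25 -0.068, SLC25A28 -0.022, SLC25A30 -0.018, SLC25A33 -0.085, SLC25A34 -0.013, SLC25A35 -0.033, SLC25A36 0.13, SLC25A40 0.037, SLC25A42 -0.031, MTCH1 -0.088 and MDH2 -0.029. The neuron marker covariate gave SLC25A1 -0.043, SLC25A11 -0.074, SLC25A16 0.041, SLC25A20 -0.11, SLC25A21 0.15, SLC25A24 0.056, SLC25A25 -0.082, SLC25A27 0.14, SLC25A28 -0.086, SLC25A33 -0.14, SLC25A34 -0.065, SLC25A35 -0.11, SLC25A36 0.27, SLC25A40 0.14, SLC25A42 -0.082, MTCH1 -0.11, MDH2 -0.044, TIMM8A 0.037 and TIMM9 0.0046.

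Without the 7 arrays of extreme background the values were SLC25A1 -0.0062, SLC25A11 -0.044, SLC25A13 0.0030, SLC25A14 0.045, SLC25A16 0.00041, SLC25A20 -0.082, SLC25A21 0.050, SLC25A27 0.13, SLC25A28 -0.079, SLC25A33 -0.075, SLC25A34 -0.030, SLC25A35 -0.033, SLC25A36 0.10, SLC25A40 0.070, SLC25A42 -0.022, MTCH1 -0.036 and VDAC3 0.014.

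Leaving out 1 array turned the sign of 10 genes, whose ranges were -0.092 to 0.040 for SLC25A16, -0.035 to 0.048 for SLC25A20, -0.18 to 0.0074 for SLC25A21, -0.022 to 0.15 for SLC25A25, -0.014 to 0.13 for SLC25A30, -0.034 to 0.066 for SLC25A33, -0.013 to 0.085 for SLC25A34, -0.20 to 0.0064 for SLC25A36, -0.055 to 0.0094 for SLC25A44 and -0.028 to 0.13 for MTCH1.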
